A study of Mus musculus with 12 samples.

Results

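The 8 genes described here encode the subunits of the chaperonin TRiC, also called CCT: Tcp1, Cct2, Cct3, Cct4, Cct5, Cct6a, Cct7 and Cct8. They were chosen by symbol, and all 8 were found among the 24982 gene symbols measured in each of 12 libraries. The libraries were made from the polyadenylated RNA of splenic B lymphocytes, taken from mice at 6 weeks of age. The libraries formed 3 groups of 4. The first group came from wild-type mice (WT), given in the series description as C57BL/J6, with Myc and Prps2 intact. The second group came from Eμ-Myc mice, whose transgene places Myc under the immunoglobulin heavy-chain enhancer and so raises Myc in cells of the B lineage. The third group came from Eμ-Myc; PRPS2 KO mice, which carry the same transgene and also lack PRPS2, a form of phosphoribosyl pyrophosphate synthetase, which supplies nucleotide synthesis. The labels do not state the strain of the transgenic mice, whether the PRPS2 knockout is restricted to some cells, or how many animals gave each library. They number the libraries of a group as biological replicates, and p-values measure the spread between these libraries.

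TRiC is the ATP-driven folding chamber of the cytosol, built from a pair of stacked rings in which each of the 8 subunits has its own place. It folds actin and tubulin and many proteins with WD40 repeats, among them the cell cycle regulator Cdc20. The subunits are related ATPases with different substrate-binding surfaces. Around a ring they follow in the order Tcp1, Cct4, Cct2, Cct5, Cct7, Cct8, Cct6a and Cct3, after which Tcp1 comes again. Cct8, Cct6a, Cct3 and Tcp1 thus follow each other, as do Cct4, Cct2, Cct5 and Cct7, and these runs are called the sides of the ring here. The ring can be cut at other places, and this cut was chosen with the fold changes known. Prefoldin hands newly made actin and tubulin to the chamber, phosducin-like proteins act with it as co-chaperones, and tubulin cofactors assemble the folded tubulins into dimers. Myc-driven cells make much protein, and Myc is known for raising genes of ribosome biogenesis and protein synthesis.

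The values were taken as mean coverages per gene, from the names and contents of the deposited tables, were made comparable between libraries with 1 factor per library, and are called scaled coverage here. Whether they were normalized by gene length is not given in the sources used here. Median scaled coverage did not rise with gene length: it was 49.9 in the 2884 genes with the shortest exonic sequence and 32.7 in the 2885 with the longest. Levels of different genes are set side by side on this scale, and the order of the subunits and their shares of a sum rest on that reading of the values. How many reads stand behind each value is unknown, and the summed coverage of a library ran from 1277305.5 to 1885768.9. Prps2, the targeted gene, had scaled coverages of 97.9, 139.5, 123 and 140.0 in WT libraries 1 to 4. It reached 246, 199, 253 and 287 in the Eμ-Myc libraries and 18.3, 17.0, 17.1 and 16.2 in the knockout libraries, and was thus lowest in the 4 libraries labelled as knockout. Myc was 226 to 346 in WT, and 1822, 1559, 2302 and 1979 in the Eμ-Myc libraries. In the knockout libraries Myc was 1099, 1718, 3017 and 3282, on both sides of the Eμ-Myc range.

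Knockout libraries 1 and 2 stood apart from knockout libraries 3 and 4. The summed scaled coverage of 8 T-cell markers was 620.2 and 678 in the first pair and 33.2 and 30.4 in the second pair. It was 104 to 149 in the Eμ-Myc libraries and 507 to 2909 in WT, where library 4 was the highest. The sum of 8 myeloid markers was 15818, 11855, 3071 and 1355 in knockout libraries 1 to 4, against 5905 to 17275 in Eμ-Myc and 8449 to 25503 in WT. The sum of 8 markers of cycling cells ran the other way, at 982, 1357, 2935 and 2896 in the knockout libraries, 1661 to 2267 in Eμ-Myc and 334 to 430 in WT (the plot of sums by library). The 8 B-cell markers summed to 8220 to 15021 in WT, 8739 to 11156 in Eμ-Myc and 7734 to 9228 in the knockout libraries. No marker of these lists was at 0 in any library. In these bulk samples, fewer cells of a type and less RNA per cell cannot be told apart.

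The 8 genes lie on 8 different chromosomes (GENCODE M21, GRCm38): Tcp1 at chr17:12915701-12925067, Cct2 at chr10:117051001-117063814, Cct3 at chr3:88297116-88321767 and Cct4 at chr11:22990519-23003780. Cct5 lies at chr15:31590800-31601804, Cct6a at chr5:129786998-129846371, Cct7 at chr6:85451514-85468475 and Cct8 at chr16:87483326-87495873. Cct2, Cct5 and Cct8 are on the minus strand and the other 5 on the plus strand. Exons of 4 of them overlap exons of a gene on the opposite strand. Tcp1 shares 571 of its 5030 exonic bases with Acat3 and 141 with Mrpl18, Cct6a shares 452 of 3620 with Psph, Cct7 shares 214 of 6778 with Pradc1, and Cct8 shares 192 of 3088 with Usp16. On the same strand, Tcp1 shares 138 exonic bases with the snoRNA gene Gm26130, and Cct6a shares 102 with the snoRNA gene Snora15. The libraries are directional, but whether the counting used strand is not given in the sources used here. Reads from the stretches shared on either strand cannot be assigned with certainty.

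Since the 8 genes moved together from library to library, their promoters were searched for 4 short motifs. RefSeq windows (GRCm38.p6) of 300 bases, from 250 before to 50 after a start, were at hand for 7 of the 8 genes, all but Cct4. They numbered 9, since Cct2 and Cct5 had 2 each, and the shares of all windows given here are per window and not per gene. Both strands were searched, and the same motifs were counted in all 32851 windows. CACGTG, the E-box to which Myc binds with its partner Max, was in 0 of the 9 windows and in 7.15% of all windows. The variant CACGCG was in 1 of the 9, that of Cct3, and in 9.27% of all windows. CCAAT was in 4 of the 9 (those of Tcp1, Cct3, Cct6a and Cct7) and in 37.4% of all windows. GGGCGG, the GC box, was in 8 of the 9, at least 1 for each of the 7 genes, and in 35.7% of all windows. A match is a string of letters and not a measured binding site, and a motif not found concerns these windows only. Cct3 had the largest fold change of the 8 genes between Eμ-Myc and WT. Cct7 had 3 CCAAT matches, the most of the 7 genes, and Cct8 had none. The promoters of Cct3, Cct7 and Cct8 are shown for these reasons. They are printed 5′ to 3′ on the gene's strand, outside annotated exons, with CCAAT and GGGCGG on either strand in capitals.
Cct3, chr3:88297000-88297115, plus strand: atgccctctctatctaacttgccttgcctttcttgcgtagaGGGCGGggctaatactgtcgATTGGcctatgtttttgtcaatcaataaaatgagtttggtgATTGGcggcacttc
Cct7, chr6:85451284-85451504, plus strand: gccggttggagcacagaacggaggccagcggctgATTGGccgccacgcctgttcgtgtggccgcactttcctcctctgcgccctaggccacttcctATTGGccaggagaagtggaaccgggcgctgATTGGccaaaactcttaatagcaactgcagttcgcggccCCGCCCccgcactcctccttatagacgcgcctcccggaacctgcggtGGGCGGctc
Cct8, chr16:87495874-87495998, minus strand: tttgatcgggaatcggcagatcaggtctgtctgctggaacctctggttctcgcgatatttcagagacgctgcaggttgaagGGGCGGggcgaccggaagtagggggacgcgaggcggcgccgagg

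In WT B cells the 8 subunit genes spanned a moderate range of scaled coverage although the ring holds the subunits in equal numbers. Cct2 was highest at 613 ± 47.8 (SD, n = 4), followed by Cct5 at 571 ± 43.8, Tcp1 at 392 ± 18.1 and Cct4 at 258 ± 9.12. Cct7 at 190.5 ± 18.2, Cct8 at 189.8 ± 13.9 and Cct3 at 183 ± 14.2 overlapped between libraries, and Cct6a was lowest at 141 ± 7.35. The ranges of Cct2 and Cct5 also overlapped, although Cct2 was above Cct5 within each of the 4 WT libraries. In Eμ-Myc the order of the first 3 was the same, and Cct3 at 535 ± 58.1 passed Cct4 at 506 ± 45.5. Cct3 was above Cct4 in 0 of 4 WT libraries, 4 of 4 Eμ-Myc libraries and 3 of 4 knockout libraries. Among the Eμ-Myc libraries every neighbouring pair in the order overlapped except Tcp1 and Cct3, and among the knockout libraries every neighbouring pair overlapped.

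All 8 subunit genes rose in Eμ-Myc B cells compared with WT, by 1.95-fold for Cct4 to 2.92-fold for Cct3. The comparison asks which genes differ in B cells that carry the Myc transgene. The sum of the 8 was 2428, 2681, 2389.7 and 2657 in WT libraries 1 to 4 and 5243, 6200.0, 6099 and 6417 in the Eμ-Myc libraries, which is 2.36 times as much on average. The lowest Eμ-Myc library was above the highest WT library for 8 of the 8 genes. Of all 12723 genes tested, 28.7% had Eμ-Myc libraries all above WT. By limma (p-values adjusted by Benjamini-Hochberg over all genes tested, called under 0.05), 8 of 8 subunits were called higher, against 30.4% of all genes called higher and 55.1% called in either direction. Their median log2 fold change was 1.21 and that of all genes tested was -0.0086.

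Cct8, Cct6a, Cct3 and Tcp1 had the 4 largest fold changes between Eμ-Myc and WT among the subunits. They follow each other in the ring, and the side they form was defined with these fold changes known. Tcp1, the subunit for which the complex was first named, had scaled coverages of 385, 414, 372 and 398 in WT libraries 1 to 4, 949, 1069.9, 1122 and 1176 in Eμ-Myc, and 652, 802, 1449 and 1362 in the knockout. Cct3 had 166, 199, 178 and 188 in WT, 450.2, 554, 556 and 581 in Eμ-Myc, and 314, 412, 768 and 746 in the knockout. WT libraries were the lowest for both genes, and knockout libraries 3 and 4 were the highest. Cct6a had 135, 150.4, 136 and 144 in WT, 343, 382, 416 and 433 in Eμ-Myc, and 234, 299.7, 585 and 581 in the knockout. Cct8 had 193, 189, 172 and 205 in WT, 428, 441, 492 and 505 in Eμ-Myc, and 289.8, 362, 654 and 650.0 in the knockout. Eμ-Myc library 1 was the lowest of its group for all 4 of these genes, and no Eμ-Myc library reached into the WT range. In limma's fit the log2 fold change of Cct3 in Eμ-Myc against WT was 1.55 (SE 0.11, adjusted p = 6.44e-06). Those of Cct6a, Tcp1 and Cct8 were 1.47 (SE 0.10, adjusted p = 5.27e-06), 1.46 (SE 0.10, adjusted p = 4.88e-06) and 1.30 (SE 0.10, adjusted p = 9.16e-06).

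Cct4, Cct2, Cct5 and Cct7, which form the other side of the ring, rose with smaller fold changes. Cct2 had scaled coverages of 581, 634, 566 and 669.9 in WT, 1217, 1417, 1323 and 1425 in Eμ-Myc, and 869, 1064, 1659 and 1665 in the knockout. Cct4 had 249, 271, 258 and 255 in WT, 440.1, 535, 509 and 537 in Eμ-Myc, and 325, 398, 665 and 638 in the knockout. For both genes the 3 groups kept the same arrangement as on the other side of the ring, with WT lowest and the knockout libraries spread around the Eμ-Myc libraries. Cct5 had 531, 626, 542 and 587 in WT, 1054, 1341, 1268 and 1327 in Eμ-Myc, and 767, 984, 1706 and 1615 in the knockout. Cct7 had 187, 197, 167 and 210.2 in WT, 362, 459.9, 413 and 432 in Eμ-Myc, and 265, 317, 575 and 561 in the knockout. No Eμ-Myc library of these 4 genes reached into the WT range either. In limma's fit the log2 fold changes in Eμ-Myc against WT were 1.13 for Cct2 (SE 0.10, adjusted p = 1.89e-05) and 1.13 for Cct7 (SE 0.11, adjusted p = 3.79e-05). Those of Cct5 and Cct4 were 1.12 (SE 0.11, adjusted p = 3.54e-05) and 0.96 (SE 0.10, adjusted p = 3.93e-05). The 95% interval of the fold was 2.46 to 3.47 for Cct3 and 1.68 to 2.26 for Cct4, the ends of the range.

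**Figure D1:**
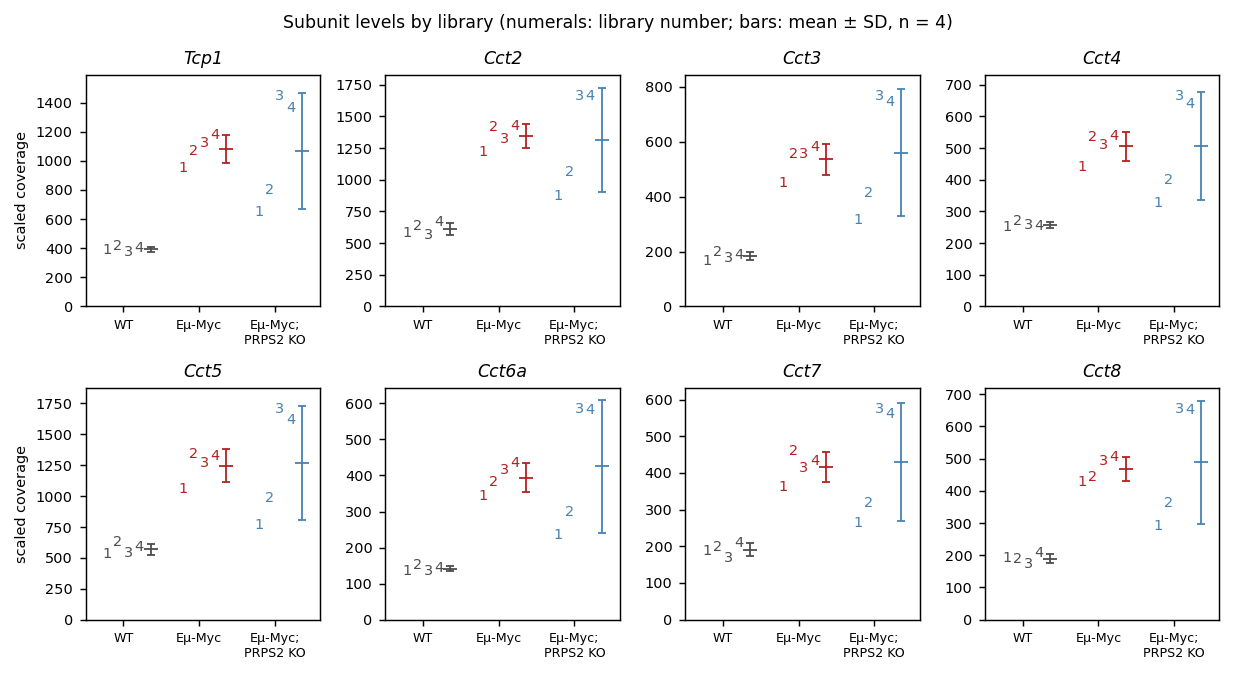
Scaled coverage of the 8 subunit genes (vertical axes, starting at 0, 1 panel per gene) in WT, Eμ-Myc and Eμ-Myc; PRPS2 KO libraries; each numeral is a library and the bars are mean ± SD of 4. In each panel the WT libraries are lowest, the Eμ-Myc libraries lie close together, and knockout libraries 1 and 2 lie below and 3 and 4 above them.

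The same Eμ-Myc libraries differed from WT in cell type markers. Of the 8 T-cell markers 8 fell, of 6 NK-cell markers 6 fell, of the 8 markers of cycling cells 8 rose, and of the 8 B-cell markers 1 fell and 7 did not pass the test (limma). Of the 8 myeloid markers 0 passed, while 8 had lower values in Eμ-Myc, with a median log2 fold change of -0.60. Of all genes 55.1% were called in either direction. T-cell marker sums were 507 to 2909 in WT and 104 to 149 in Eμ-Myc, and sums of cycling markers were 334 to 430 and 1661 to 2267. The part of these differences in the subunit result was not tested. With coverage scaled by library totals, all genes shifted by a median log2 of -0.19, and 42.0% of called genes were higher in place of 55.2%. The subunit fold changes were then 0.78 for Cct4 to 1.36 for Cct3 on the log2 scale, and 8 of 8 were still called higher.

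The balance between the subunits also differed between WT and Eμ-Myc. Shares of the summed coverage of the 8 genes do not depend on how libraries are scaled, and they add up to a fixed total, so a higher share of some goes with a lower share of others. Tcp1 made up 15.5% ± 0.357 (SD, n = 4) of the sum in WT and 18.0% ± 0.525 in Eμ-Myc. The share of Cct3 was 7.19% ± 0.292 in WT and 8.93% ± 0.239 in Eμ-Myc, and that of Cct6a was 5.56% ± 0.110 and 6.57% ± 0.296. For these 3 genes every Eμ-Myc library was above every WT library. Cct4 went from 10.2% ± 0.489 to 8.44% ± 0.132, Cct5 from 22.5% ± 0.666 to 20.8% ± 0.629, and Cct2 from 24.1% ± 0.736 to 22.5% ± 0.680. For these 3 every Eμ-Myc library was below every WT library. The shares of Cct7 (7.50% ± 0.407 and 6.96% ± 0.315) and Cct8 (7.48% ± 0.430 and 7.81% ± 0.475) overlapped between the groups.

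Added up, the ring neighbours Cct8, Cct6a, Cct3 and Tcp1 held 35.2% to 36.2% of the sum in WT libraries and 39.5% to 42.4% in Eμ-Myc libraries, with means of 35.7% ± 0.427 and 41.3% ± 1.30. In the knockout libraries 1 to 4 they held 40.1%, 40.4%, 42.9% and 42.7%. The WT libraries thus lay below all 8 libraries with the transgene, and the other groups overlapped. Grouping the subunits by their place in the ring was done with these values known, so no test was made of it. The 4 genes added up are those with the largest fold changes between Eμ-Myc and WT. Their higher joint share in Eμ-Myc follows from that choice. For single subunits, the knockout and Eμ-Myc shares overlapped for 8 of 8 genes, and the largest difference between the means was -0.46 percentage points for Tcp1 (knockout 17.6% ± 0.294).

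**Figure D2:**
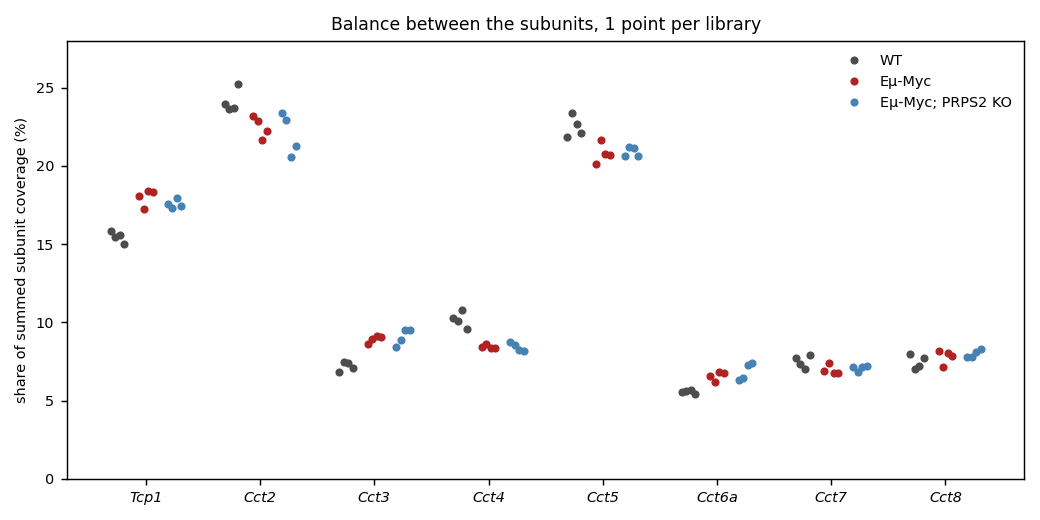
Share of each subunit gene in the summed scaled coverage of the 8 genes (vertical axis, percent, starting at 0), 1 point per library, coloured by group. Tcp1, Cct3 and Cct6a have higher shares in the 8 transgenic libraries than in WT, and Cct2, Cct4 and Cct5 have lower ones; the Eμ-Myc and knockout points overlap for every gene.

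The mean subunit levels of the knockout group were close to those of Eμ-Myc, while its 4 libraries lay far apart. The sum of the 8 was 3715, 4639, 8060.5 and 7818 in knockout libraries 1 to 4. Its mean was 6058 ± 2207 (SD, n = 4), which is 1.01 times the Eμ-Myc mean of 5989.9 ± 515. Libraries 1 and 2 were below all 4 Eμ-Myc libraries and libraries 3 and 4 were above all 4 of them for 8 of the 8 genes, also when coverage was scaled by median ratios or by library totals. This arrangement was found in 17.0% of the 12361 genes tested in all comparisons, and its opposite in 13.7%. With scaling by median ratios 17.9% of genes had the arrangement, and with scaling by library totals 11.4% had it. The libraries came in the order 1, 2, 4, 3 from low to high for 7 of the 8 genes, and for Cct2 in the order 1, 2, 3, 4. The ratio of the highest to the lowest knockout library was 1.92 for Cct2 to 2.49 for Cct6a, while among Eμ-Myc libraries it was 1.17 to 1.29 and among WT libraries 1.09 to 1.26.

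The spread of the subunit genes was small in WT and Eμ-Myc and large in the knockout group, relative to all genes tested in all comparisons. Those genes were not matched to the subunits by level, and most of them had lower coverage. The SD of the log2 values over 4 libraries had a median over the 8 subunits of 0.11 in WT and 0.14 in Eμ-Myc, against 0.21 over all genes in each of these groups. In the knockout group it was 0.57, against 0.38 over all genes. Myc and the cycling markers were likewise lower in knockout libraries 1 and 2 than in 3 and 4, and the T-cell and myeloid markers were higher there, with the values given above. The part of these in the subunit levels was not tested.

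**Figure D3:**
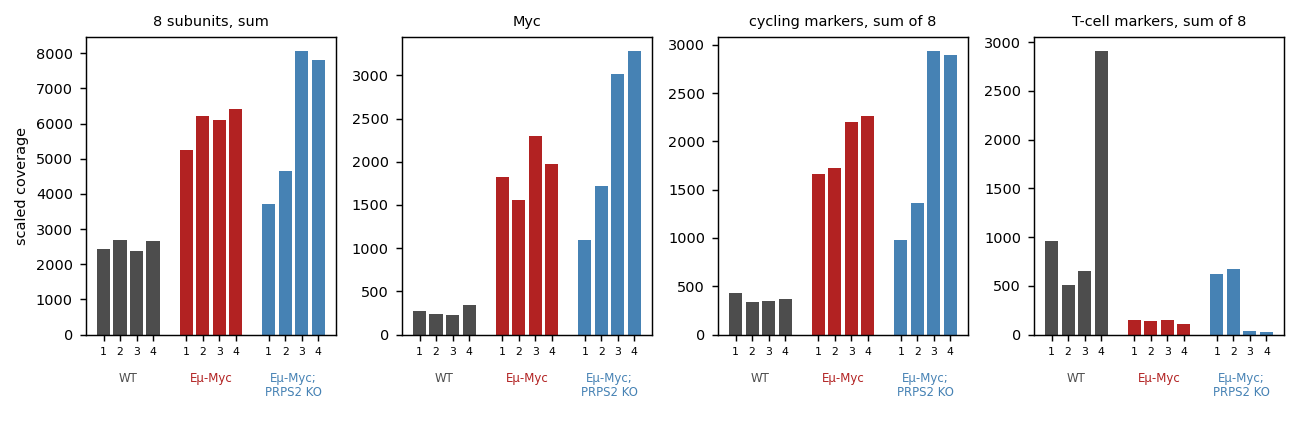
Scaled coverage by library (bars from 0; numerals are library numbers) for the sum of the 8 subunit genes, Myc, the sum of 8 markers of cycling cells and the sum of 8 T-cell markers. Knockout libraries 3 and 4 are highest in the first 3 panels and lowest in the T-cell panel, where WT library 4 is highest at 2909.

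In the test of the knockout against Eμ-Myc, which addresses how the loss of PRPS2 bears on the programme set by Myc, 0 of 8 subunits were called by limma and 0 had an unadjusted p under 0.05. Of 12551 genes 1, or 0.00797%, was called, namely Prps2 (log2 fold change -3.79, adjusted p = 1.58e-05), and 121 had an unadjusted p under 0.05. The log2 fold changes of the subunits ran from -0.09 for Tcp1 to 0.0037 for Cct6a, with a median of -0.04, against -0.03 for all genes. The limma 95% interval for Tcp1 was -0.70 to 0.51, that is 0.614-fold to 1.43-fold, and that for Cct6a was -0.71 to 0.71, and both intervals include 0. Without knockout library 1 the subunits' log2 fold changes were 0.09 to 0.25. Without library 3 they were -0.27 to -0.19 and without library 4 they were -0.24 to -0.18, and 0 of 8 were called in each case.

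The outcome depended on how the knockout libraries were weighted. When limma estimated a quality weight for each library, knockout libraries 1 and 2 received weights of 0.0817 and 0.129 and libraries 3 and 4 received 3.20 and 7.76. With these weights 8 of 8 subunits were called higher in the knockout, and 7459 genes, or 59.4% of all tested, were called in either direction. Their log2 fold changes were then 0.30 for Cct2 (limma, adjusted p = 0.00853) to 0.49 for Cct6a (limma, adjusted p = 0.00393). These values rest mainly on knockout libraries 3 and 4.

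Knockout B cells also had higher subunit levels than WT. The lowest knockout library, library 1, was above the highest WT library by 1.20 times for Cct4 to 1.57 times for Tcp1 and Cct3. The groups did not overlap for 8 of 8 genes, against 22.2% of all genes with the knockout libraries all above WT. By limma 8 of 8 were called higher, against 19.7% of 12692 genes called higher and 29.3% called in either direction. This comparison shares its WT libraries with that of Eμ-Myc and its knockout libraries with that of the knockout against Eμ-Myc, so the 3 are not independent.

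The fold changes of the knockout against WT had wider errors than those of Eμ-Myc against WT. For the ring neighbours Cct8, Cct6a, Cct3 and Tcp1 the log2 fold changes were 1.52 for Cct3 (SE 0.29), 1.47 for Cct6a (SE 0.30), 1.36 for Tcp1 (SE 0.26) and 1.28 for Cct8 (SE 0.27). On the other side of the ring they were 1.09 for Cct7 (SE 0.27), 1.07 for Cct5 (SE 0.26), 1.05 for Cct2 (SE 0.22) and 0.91 for Cct4 (SE 0.24). The limma adjusted p ran from 0.0151 for Tcp1 to 0.0315 for Cct4. Their median was 1.18, against -0.01 for all genes. The calls depended on single libraries: 3 of 8 were past the threshold without knockout library 3, and 2 of 8 without knockout library 4. Without WT library 1, 2, 3 or 4 the numbers were 2, 2, 0 and 5, and without knockout library 1 or 2 they were 8 and 8. Over all alternatives the direction was upward for each gene, and the adjusted p reached at most 0.0534 for Tcp1 and 0.0883 for Cct4. In the same comparison 8 of 8 cycling markers rose, and 4 of 5 platelet markers fell (limma). By the same test 1 of 8 B-cell markers was called lower and 1 of 5 plasma cell markers higher. Of the 6 NK-cell markers 0 passed, 1 had an unadjusted p under 0.05, and their median log2 fold change was -2.42 (limma). Of the 8 myeloid markers 0 passed, and their median log2 fold change was -1.25 (limma). Of the 8 T-cell markers 0 passed the test, while 6 had an unadjusted p under 0.05 and their median log2 fold change was -3.19 (limma). T-cell sums were 30.4 to 678 in the knockout group and 507 to 2909 in WT, and the part of these markers in the subunit result was not tested.

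**Figure D4:**
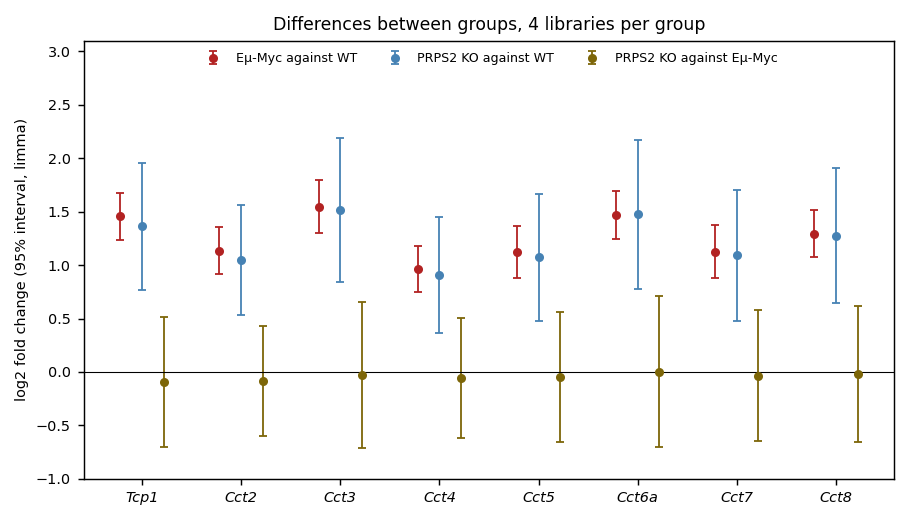
Log2 fold changes of the 8 subunit genes (points) with limma 95% intervals (bars) for Eμ-Myc against WT, Eμ-Myc; PRPS2 KO against WT, and Eμ-Myc; PRPS2 KO against Eμ-Myc, 4 libraries per group. Both comparisons with WT lie above 0 for each gene, from 0.91 to 1.55, and the comparison of the transgenic groups lies around 0 with intervals that include it.

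Several of the genes that work with the chaperonin rose in Eμ-Myc as well, in a comparison where 30.4% of all genes were called higher and 55.1% in either direction. In prefoldin, the hexamer that carries unfolded actin and tubulin, 5 of 6 subunits rose by limma: Pfdn4 (log2 fold change 1.27), Pfdn6 (1.14), Pfdn1 (0.90), Pfdn2 (0.78) and Vbp1 (0.63). Pfdn5, also known as a Myc-binding protein, was 565 to 651 in WT and 429 to 635 in Eμ-Myc, with a log2 fold change of -0.24 that did not pass (limma adjusted p = 0.143). Of the 8 genes of the R2TP co-chaperone and its prefoldin-like module 7 rose, led by the ATPases Ruvbl1 (1.61) and Ruvbl2 (1.60) and by Rpap3 (1.32). Uxt (0.82), Uri1 (0.76), Pih1d1 (0.56) and Wdr92 (0.54) rose less, and Pdrg1 (0.29) did not pass. The median log2 fold change was 0.84 over the 6 prefoldin genes and 0.79 over the 8 R2TP and prefoldin-like genes, against -0.0086 over all genes.

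Of the phosducin-like co-chaperones 0 of 2 tested passed, and of the tubulin cofactors 2 of 6 were called higher, against 30.4% of all genes. Pdcl (log2 fold change 0.19) and Pdcl3 (0.12) did not pass, and Pdcl2 was listed at 0 in all 12 libraries. Pdcl3 had scaled coverages of 45.4 to 51.8 in WT and 47.6 to 58.5 in Eμ-Myc. Among the genes that assemble tubulin dimers, Tbcd (0.69) and the GTPase Arl2 (0.62), which acts with it, rose in Eμ-Myc, and Tbca, Tbcb, Tbcc and Tbce lay between -0.06 and 0.26 and did not pass the limma test. Among 7 relatives of the chaperonin, the mitochondrial chaperonin Hspd1 rose most, from 224 to 275 in WT to 811 to 1055 in Eμ-Myc (log2 fold change 1.89, limma adjusted p = 3.47e-06). Its partner Hspe1 (0.97) and the ciliary chaperonin-like Mkks (0.45) rose too, while Bbs10 (-0.47) and Bbs12 (0.33) did not pass. Cct6b, a relative of Cct6a known from the testis, was between 0.104 and 1.00 in all libraries, and Cct8l1 was 0.0946 or lower. Both were too low to be tested.

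Of 24 genes whose proteins are folded by TRiC, 12 rose and 3 fell in Eμ-Myc by limma. Of all genes 30.4% were called higher and 55.1% in either direction, so the 15 clients called in either direction are near that share. The 12 of 24 called higher lie above the 30.4% of all genes, a difference that was not tested. Plk1 (log2 fold change 2.97), Cdc20 (2.96) and Ccne1 (2.64), which act in the cell cycle, rose most among those named here. Cdc20 was 18.1 to 34.6 in WT, 149 to 215 in Eμ-Myc, and 79.9, 122, 297 and 270.4 in the knockout libraries. The tubulins Tuba1b (2.04), Tubb2b (1.63), Tubb5 (1.48), Tubb4b (1.40), Tubg1 (1.26) and Tuba1c (1.02) rose as well. The tubulins Tuba1a (-0.28), Tuba4a (0.25), Tubb2a (-0.41), Tubb3 (0.43) and Tubb6 (-0.76) did not pass. The actin gene Actb fell, from 3981 to 4179 in WT to 3127 to 3699.5 in Eμ-Myc (log2 fold change -0.27, limma adjusted p = 0.0260), and Actg1 (-0.12) did not pass. The other genes that fell were Stat3 (-1.26) and Vhl (-0.48), named after their values were seen. Actin and tubulin genes have near-identical copies, and how shared reads were counted is not given in the sources used here, so their single values are uncertain.

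**Figure D5:**
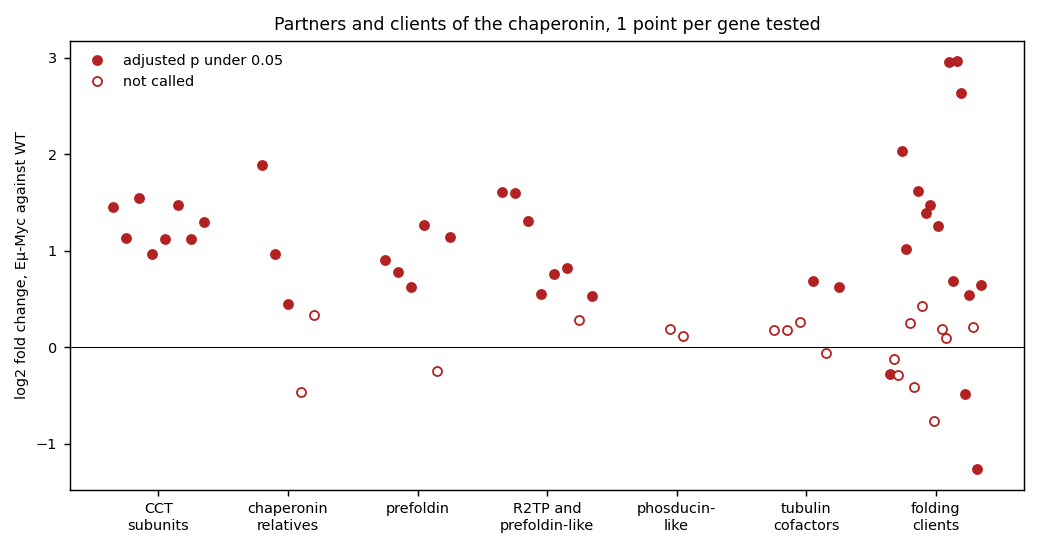
Log2 fold change of Eμ-Myc against WT (vertical axis) for the tested genes of 7 lists, 1 point per gene; filled points had a limma adjusted p under 0.05. All 8 subunits, 5 of 6 prefoldin genes and 7 of 8 R2TP and prefoldin-like genes are filled and above 0, and the clients range from -1.26 to 2.97.

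Against Eμ-Myc, the knockout group had 0 called genes in each of these 6 lists of partners, relatives and clients, and 0 with an unadjusted p under 0.05 (limma). Under library quality weights 2 relatives, 6 prefoldin genes, 6 R2TP and prefoldin-like genes, 2 tubulin cofactors and 18 clients were called, against 59.4% of all genes under the same weights. Against WT, the calls in the knockout group were 1 of 5 tested relatives, 1 higher and 1 lower of 6 prefoldin genes, 4 of 8 R2TP and prefoldin-like genes, 1 of 6 tubulin cofactors and 11 higher and 2 lower of 24 clients. Over all genes 19.7% were called higher and 29.3% in either direction, and the counts of relatives, prefoldin genes and cofactors are near these shares. The prefoldin genes called were Pfdn6 (log2 fold change 0.97) and Pfdn5 (-0.47, limma adjusted p = 0.0212). Pfdn5 was 407 to 441 in the knockout libraries, below all WT libraries and overlapping those of Eμ-Myc. Hspd1 had 531, 769, 1552 and 1548 in the knockout libraries and a log2 fold change of 2.00 against WT (limma adjusted p = 0.0115). Ruvbl1 (1.56), Ruvbl2 (1.55), Rpap3 (1.18) and Uri1 (0.76) were the R2TP and prefoldin-like genes called against WT. These counts moved with single libraries: without knockout library 1 they were 3 relatives, 6 prefoldin, 6 R2TP and prefoldin-like genes, 2 cofactors and 16 clients. Without knockout library 2 there were 2 relatives and 5 prefoldin genes. Without knockout library 3 or 4, or WT library 1, 2, 3 or 4, there were 0 or 1 prefoldin genes, 0 to 2 R2TP and prefoldin-like genes, 0 cofactors and 3 to 8 clients.

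The 8 subunit genes followed each other closely over the 12 libraries. The Pearson correlation of each subunit's log2 scaled coverage with the mean of the other 7, after standardizing each gene, was 0.994 to 0.998. After subtracting each group's mean, the correlation was taken with the mean of all 8 subunits, the gene itself included, which raises it. It was then 0.980 to 0.996, and the knockout libraries contribute most of the spread. The 5 other genes most like the mean of the subunits, of 11521 ranked over the 12 libraries, were Ruvbl2 (r = 0.999), Pold2 (r = 0.998), Ints10 (r = 0.998), Lyar (r = 0.998) and Eif2b1 (r = 0.998). With group means subtracted their r was 0.995, 0.993, 0.993, 0.992 and 0.998. Ruvbl2, an ATPase of R2TP, had scaled coverages of 71.2 to 86.3 in WT, 198 to 257 in Eμ-Myc, and 127, 171, 359.8 and 337 in the knockout libraries. Ruvbl2 was picked for its likeness to the subunits over these libraries, so its levels are no further evidence. Myc had r = 0.967, rank 1257, and 0.890 with group means subtracted. The points share libraries, groups and cell composition, and the correlations are a description.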

How the data were processed

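For each library the authors deposited gene symbols and values taken here as mean coverage, a signal rounded to 1 decimal and not scaled between libraries. Of the values above 0, 91.6% were not whole. The submitters' processing notes name DESeq, R 4.3.3 and the build mm10, with no role or order, and the aligner, counting step and annotation are not given in the sources used here. Since the values are no counts, limma 3.58.1 in R 4.3.3 was used. Descriptions and plots used numpy 2.4.6, pandas 2.3.3 and matplotlib 3.10.9 under Python 3.11.15.

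Coverage was divided by a factor per library, from unweighted trimmed means of log ratios (trims of 30% for ratios and 5% for mean values). A gene was tested if 4 or more of the 8 libraries compared had a scaled coverage of 1 or more. The 8 libraries of each comparison entered a limma model of log2(scaled coverage + 0.5), two-sided, with trended and robust empirical Bayes moderation. The pseudocount makes fold changes of low genes smaller. Calls were made at 0.05 after Benjamini-Hochberg adjustment over the genes tested. The method was checked on simulated data.

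The 8 subunits and the genes of fixed lists were named: relatives, prefoldin, phosducin-like, tubulin cofactors, R2TP and prefoldin-like, and of the clients the actins, tubulins, Cdc20, Plk1 and Ccne1, besides the 5 genes most correlated with the subunits. The members and lists were chosen with earlier results of these data known. Other lists held markers of B, T, NK, myeloid, erythroid, platelet, plasma and cycling cells. In Eμ-Myc against WT, 0 of 7 erythroid markers (1 at an unadjusted p under 0.05), 1 of 5 platelet markers (lower) and 3 of 5 plasma cell markers (1 higher, 2 lower) passed the limma test.

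The labels number the libraries 1 to 4 in each group. Deviations from the group means of same-numbered knockout and Eμ-Myc libraries correlated across genes with r of 0.657, 0.192, 0.253 and 0.607. These were taken as possible pairs, from the values alone, and the main fits did not use them. Knockout libraries 2 and 3 matched best with Eμ-Myc libraries 1 and 4, not with their own numbers. Eμ-Myc and WT (-0.10 to 0.264) and knockout and WT (-0.42 to 0.398) libraries share only a number. A replicate block was fitted as an alternative in all 3 comparisons. Other alternatives changed the scaling, filter, pseudocount, libraries in the fit and library weights, or left out each library in turn.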

Additional observations from a re-analysis of the deposited data

How the results depend on the processing

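The 8 calls in Eμ-Myc against WT were made under each of the 9 other settings and without each library, with adjusted p of at most 0.00551 (limma). For the knockout against Eμ-Myc, library quality weights gave 8 calls in place of 0, with log2 fold changes of 0.30 (Tcp1), 0.30 (Cct2), 0.44 (Cct3), 0.33 (Cct4), 0.37 (Cct5), 0.49 (Cct6a), 0.44 (Cct7) and 0.41 (Cct8). Cct8 was 0.0049 with median-of-ratios scaling and 0.0086 with total coverage scaling. Leaving out 1 library gave 0 calls each time, with ranges of -0.27 to 0.12 (Tcp1), -0.22 to 0.093 (Cct2), -0.22 to 0.21 (Cct3), -0.21 to 0.13 (Cct4), -0.22 to 0.17 (Cct5), -0.19 to 0.25 (Cct6a), -0.20 to 0.17 (Cct7) and -0.19 to 0.20 (Cct8). For the knockout against WT, leaving out 1 library gave 0 to 8 subunits called and 600 to 6633 genes in all, in place of 3716. The causes of these changes were not tested.

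With a replicate block 8, 0 and 7 subunits were called in Eμ-Myc against WT, the knockout against Eμ-Myc and the knockout against WT, where Cct4 lost its call (limma adjusted p = 0.0531) and 1863 genes were called in all. In the last comparison the block left 0 prefoldin genes, 0 tubulin cofactors and 8 clients called. Under the block no other subunit changed its call. Of the 4 same-numbered pairs, 2 knockout libraries matched best with their own number in Eμ-Myc, as did 2 Eμ-Myc libraries in WT and 1 knockout library in WT. In Eμ-Myc against WT the other settings called 2 to 5 relatives, 5 or 6 prefoldin genes and 0 or 1 phosducin-like genes. They called 6 or 7 R2TP and prefoldin-like genes, 13 to 20 clients and 2 tubulin cofactors. The 6 R2TP and prefoldin-like genes came with scaling by library totals. Counts of all genes called ran from 4835 to 8808 in Eμ-Myc against WT. Library weights gave 7459 in the knockout against Eμ-Myc and 10505 in the knockout against WT. The position of knockout libraries around Eμ-Myc was also counted with the other scalings, chosen after seeing the data, with 8 subunits each time. The depth behind each value is unknown, so no detection limit can be given.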
